A study of Mus musculus with 8 samples.

Results

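Cytochrome P450 genes encode haem enzymes that insert an oxygen atom into drugs, fatty acids, steroids, bile acids and vitamins. In the deposited table of counts per gene, 94 of 55421 genes were protein-coding and carried a symbol made of Cyp, a family number, subfamily letters and a gene number, and these 94 are the genes described here. Of them, 25 were expressed in long bone at a mean of 0.5 CPM (read counts scaled to library size) or more over all 8 libraries, 56 had at least 1 count in some library, and 38 had no count in any. The 25 genes were chosen by that mean, so levels are given as a description without a test.

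The samples were tibiae and femurs of wild-type male C57BL/6 mice, 15 weeks old at the start. On day 0 each mouse had received 1 intraperitoneal injection, either saline vehicle (labelled CTRL, 4 mice) or doxorubicin at 10 mg/kg (DoxoR, 4 mice), and bones were collected on day 30. Doxorubicin is an anthracycline that poisons topoisomerase II, and the series used it as a chemotherapy model of senescence. Tibiae and femurs of each animal were extracted together as 1 RNA sample, after removal of soft tissue, the bone ends and, by centrifugation, the marrow. Replicates were therefore separate mice, and both groups shared strain, sex, age and genotype.

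Liver holds the highest levels of many P450 enzymes, those of the CYP1, CYP2 and CYP3 families in particular, which oxidise foreign compounds together with the electron donor P450 oxidoreductase. In the skeleton the family is best known for the enzymes that make and destroy calcitriol, the active form of vitamin D, and retinoic acid, both of which act on bone cells through nuclear receptors. Other members oxidise arachidonic acid and leukotrienes in blood cells, or cholesterol on the way to bile acids.

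The libraries held between 23699525 and 35747083 counts, so 3 counts, the upper limit that a count of 0 allows, equalled 0.0762 to 0.140 CPM in a library and 0.0132 CPM over all 8. Such limits cover counting error only. Markers of bone cells were present, with the 9 osteoblast markers summing to 4308 to 16220 CPM over the libraries. RNA of other tissues was present too, since 10 neutrophil markers summed to 10280 to 23020 CPM and 10 skeletal muscle markers to 4064 to 31670 CPM. Of 9 hepatocyte markers, 6, namely Alb, Ttr, Fgb, Fga, Apoa2 and Ahsg, had together 2 to 16 counts in each library. The other 3 were Trf, which is also made outside the liver, at 78.9 to 118 (117.7) CPM, Serpina1a at 0 to 7.97 CPM with the highest value in DoxoR 3, and Apoa1, seen mainly in DoxoR 1. The library DoxoR 1 stood apart by counts of genes of the gut lining, described with the low members. In such bulk RNA, fewer cells of a type and less RNA per cell cannot be told apart.

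Cyp2e1, Cyp2f2 and Cyp1b1 carry the results below, so the 250 bases that precede their RefSeq start sites (GRCm38.p6) are shown first, 5′ to 3′ on the gene's strand. Capitals mark TATAAA and CCAAT in Cyp2e1, with CCAAT read on the other strand as ATTGG, and in Cyp1b1 the letters GCGTG, the core of the site bound by the aryl hydrocarbon receptor, read on the other strand as CACGC. The Cyp2e1 window is chr7:140763569-140763818 on the plus strand, that of Cyp2f2 is chr7:27119705-27119954 on the plus strand, and that of Cyp1b1 is chr17:79715062-79715311 on the minus strand.
Cyp2e1: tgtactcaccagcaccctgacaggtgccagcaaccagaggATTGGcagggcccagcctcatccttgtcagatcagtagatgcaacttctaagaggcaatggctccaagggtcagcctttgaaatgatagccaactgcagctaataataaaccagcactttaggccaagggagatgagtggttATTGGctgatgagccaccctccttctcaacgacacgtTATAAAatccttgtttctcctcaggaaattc
Cyp2f2: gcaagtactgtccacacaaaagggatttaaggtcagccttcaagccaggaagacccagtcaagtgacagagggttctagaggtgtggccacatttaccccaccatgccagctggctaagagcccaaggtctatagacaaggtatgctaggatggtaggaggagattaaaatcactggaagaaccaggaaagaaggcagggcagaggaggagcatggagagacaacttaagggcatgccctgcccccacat
Cyp1b1: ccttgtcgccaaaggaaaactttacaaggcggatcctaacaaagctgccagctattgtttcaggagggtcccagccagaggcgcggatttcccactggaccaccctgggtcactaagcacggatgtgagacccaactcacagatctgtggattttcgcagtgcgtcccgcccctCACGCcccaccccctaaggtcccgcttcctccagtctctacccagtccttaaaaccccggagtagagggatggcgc

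In Cyp2e1 the letters TATAAA began 31 bases before the RefSeq start site, and CCAAT lay on the other strand at 210 and 68 bases before it. In the GENCODE M21 annotation Cyp2e1 and Cyp2f2 start earlier, at chr7:140763739 and chr7:27119909. The last part of both windows thus lies inside the gene there, with TATAAA and the CCAAT at 68 bases in Cyp2e1. GCGTG lay 76 bases before the start of Cyp1b1, and the Cyp2f2 window held none of the 3 motifs on either strand. RefSeq entries were found for 73 of the 94 genes, with 83 windows of 250 bases. TATAAA was present in 33.7% of these windows and in 12.4% of 32851 windows over all genes, CCAAT in 42.2% and 33.8%, and GCGTG in 19.3% and 28.2%. The motifs did not overlap in the windows shown, and a match of letters is a description, not a site in use.

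Summed over the 94 genes, P450 transcripts took 236 ± 17.4 CPM in vehicle mice and 230 (229.8) ± 23.5 CPM in doxorubicin mice (SD, n = 4 each). Cyp1b1 alone made up 39.8% ± 4.83 and 34.5% ± 4.44 of that sum (SD, n = 4 each). The other members together were at 141 ± 5.62 and 149.7 ± 5.56 CPM (SD, n = 4 each). Between 33 and 45 of the 94 genes had a count in a given library, the highest number falling in DoxoR 1. Cyp1b1 was thus the largest single part of the sum in every mouse, by CPM not divided by gene length.

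**Figure D1:**
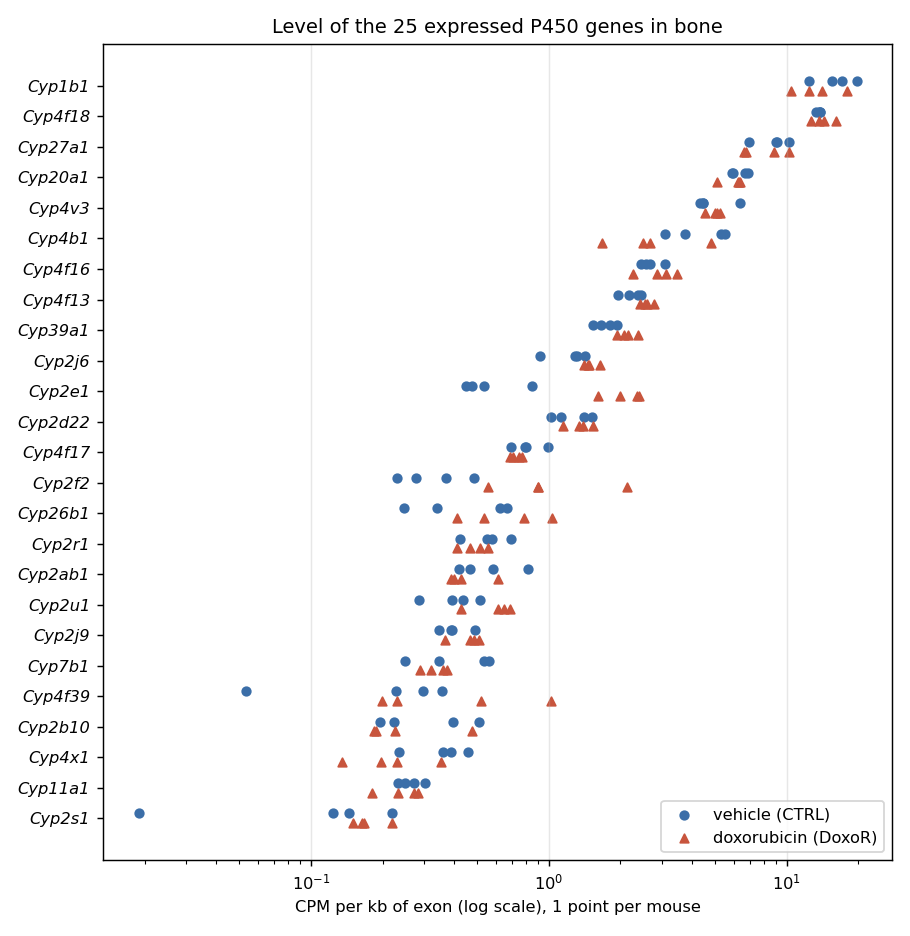
Level of the 25 expressed P450 genes in each mouse, as CPM per kb of exon on a log axis, with genes ordered by their mean over all 8 mice (circles: vehicle, triangles: doxorubicin, 1 point per mouse). Cyp1b1 and Cyp4f18 lie above 10 CPM per kb in every mouse, and the circles and triangles of Cyp2e1 do not overlap.

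To compare genes with each other, CPM was divided by the length of the gene's merged exons in the GENCODE M21 annotation. On that scale the means over all mice ran from 14.9 CPM per kb for Cyp1b1 to 0.151 CPM per kb for Cyp2s1. Cyp1b1 and Cyp4f18, at 14.9 and 13.9 CPM per kb, overlapped between mice (10.5 to 19.7 and 12.7 to 16), so their order was not resolved. Cyp27a1 came next at 8.46 CPM per kb, and its range of 6.64 to 10.3 lay below every value of Cyp4f18. Cyp20a1 at 6.17 CPM per kb and Cyp4v3 at 4.93 CPM per kb overlapped with each other, and the top value of Cyp20a1, 6.88, also passed the lowest of Cyp27a1. Below them came Cyp4b1 (3.66), Cyp4f16 (2.80), Cyp4f13 (2.41), Cyp39a1 (1.93) and Cyp2j6 (1.37 CPM per kb), as the plot of levels per kb shows. The per-kb means of Cyp2e1 and Cyp2f2 were 1.33 and 0.731. The other expressed genes were Cyp2d22, Cyp4f17, Cyp26b1, Cyp2r1, Cyp2ab1, Cyp2u1, Cyp2j9, Cyp7b1, Cyp4f39, Cyp2b10, Cyp4x1, Cyp11a1 and Cyp2s1.

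Levels varied between mice of a group by a median coefficient of variation of 19.8% over the 25 genes in vehicle mice (2.06% to 65.3%) and 17.4% in doxorubicin mice (5.29% to 77.1%). Just inside the 0.5 CPM limit lay Cyp2s1 at 0.745 and Cyp2b10 at 0.632 CPM. Just outside it were Cyp46a1 at 0.427, Cyp26a1 at 0.425, Cyp3a13 at 0.352 and Cyp27b1 at 0.298 CPM.

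The comparison of doxorubicin with vehicle asks whether P450 transcripts differed 30 days after the drug. All 25 expressed genes and the 2 genes just below, Cyp46a1 and Cyp26a1, passed the filter on low counts and were tested among 17035 genes, while 67 of the 94 were not tested. Cyp46a1 passed mainly through the doxorubicin group, where 4 libraries exceeded the filter's 0.369 CPM against 1 vehicle library. Cyp26a1 passed mainly through the vehicle group, where 3 libraries exceeded that level against 1 doxorubicin library. No P450 gene reached an adjusted p of 0.05 in edgeR's quasi-likelihood test with Benjamini-Hochberg adjustment, and neither did any other gene (0%). At an unadjusted p under 0.05 in the same test there were 4 P450 genes of 27, all higher after doxorubicin, namely Cyp2e1, Cyp2f2, Cyp39a1 and Cyp2u1. That is 14.8% of those tested, beside 5.36% (913) of all genes, of which 2.13% were higher and 3.23% lower. Without CTRL 1, without CTRL 3 or without DoxoR 1 the number was 2, beside 5.18%, 4.45% and 4.61% of all genes. Cyp2e1 and Cyp2f2 were left each time. Leaving out some other mice brought in genes that were lower after doxorubicin. These were Cyp4b1 and Cyp1b1 without DoxoR 2 (4.74% of all genes) and Cyp4b1 without CTRL 2 (3.73%). Cyp4x1 was the lower gene without CTRL 4 (10.5%) and without DoxoR 4 (3.68%). DESeq2 called 1 P450 gene, Cyp2e1, among 29 genes (0.17%), and its unadjusted p was under 0.05 for 3 P450 genes, the same as in edgeR less Cyp39a1, and for 5.59% of all. Limma-voom called none, with unadjusted values under 0.05 for 4 P450 genes and for 5.52% of all. In 3 P450 genes, Cyp2e1, Cyp2f2 and Cyp39a1, every doxorubicin mouse lay above every vehicle mouse, beside 1.64% of all genes in that direction and 3.59% in either.

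The 27 tested genes lay on both sides of no difference. Their median log2 fold change, doxorubicin over vehicle, was 0.06, beside 0.04 over all tested genes, and 15 of the 27 (57.2% of all genes) were above 0. For 18 of the 27 the log2 fold change was smaller than 0.5 in size, and for 3, Cyp2e1, Cyp2f2 and Cyp4f39, it was larger than 1. For 23 of the 27 the 95% interval included 0. Apart from Cyp2e1, adjusted p-values by edgeR ran from 0.703 to 0.971.

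**Figure D2:**
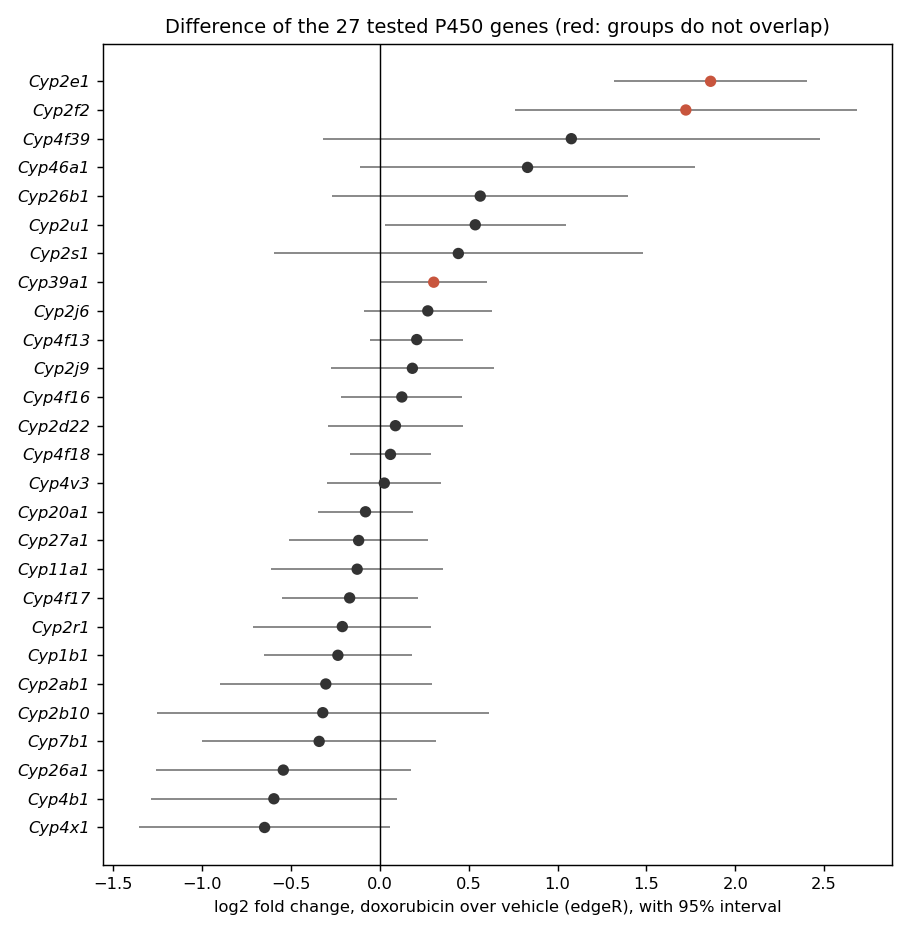
Log2 fold change of the 27 tested P450 genes, doxorubicin over vehicle, with the 95% interval from edgeR; red points mark genes whose groups do not overlap. Cyp2e1 and Cyp2f2 stand at 1.86 and 1.72, while 23 of the 27 intervals include 0.

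Among the enzymes of the CYP1, CYP2 and CYP3 families best known for oxidising foreign compounds, 20 of 45 had a count. Of these, 5 were expressed and tested, and 3 of the 5 had log2 fold changes above 0, beside 57.2% of all genes. Cyp2e1 (ENSMUSG00000025479.9, chr7:140763739-140774987 in GRCm38, plus strand) oxidises ethanol, acetone and other small molecules. Its levels were 1.84, 1.03, 0.965 and 1.15 CPM in vehicle mice 1 to 4, and 3.48, 5.08, 4.31 and 5.17 CPM in doxorubicin mice 1 to 4. Every doxorubicin mouse was higher than the highest vehicle mouse. The means were 1.24 ± 0.402 and 4.51 ± 0.786 CPM (SD, n = 4 each), a log2 fold change of 1.86 ± 0.24 (SE) with a 95% interval of 1.32 to 2.41. Its unadjusted p of 1.91e-05 in edgeR's model was the smallest of all genes tested, yet after Benjamini-Hochberg adjustment it was 0.326. DESeq2 gave an adjusted p of 7.66e-08, and edgeR run without a filter on low counts gave 0.0280, where Cyp2e1 was the only call among 30487 genes (0.00328%). Over all alternatives run for this gene the adjusted p ran from 7.66e-08 to 1.00 (0.9998) while its log2 fold change stayed between 1.63 and 2.11. Because this gene was already known from earlier results of these data, its rank adds no independent evidence.

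Cyp2f2 (ENSMUSG00000052974.8, chr7:27119909-27133660, plus strand) is best known in the mouse lung, where it activates naphthalene. Its levels were 0.749, 0.467, 0.559 and 0.979 CPM in vehicle mice and 1.83, 4.33, 1.12 and 1.82 CPM in doxorubicin mice. The groups did not overlap, but doxorubicin mouse 2 stood far above the other doxorubicin mice. The means were 0.688 ± 0.227 and 2.27 ± 1.41 CPM (SD, n = 4 each), a log2 fold change of 1.72 ± 0.43 (SE; 95% interval 0.76 to 2.68) with an adjusted p of 0.703 in edgeR and 0.0698 in DESeq2. Leaving out DoxoR 2 brought the log2 fold change to 1.16. Of its exon length, 13.5% overlapped Gm15883 on the opposite strand, and the sources used here do not say whether counting used the strand.

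**Figure D3:**
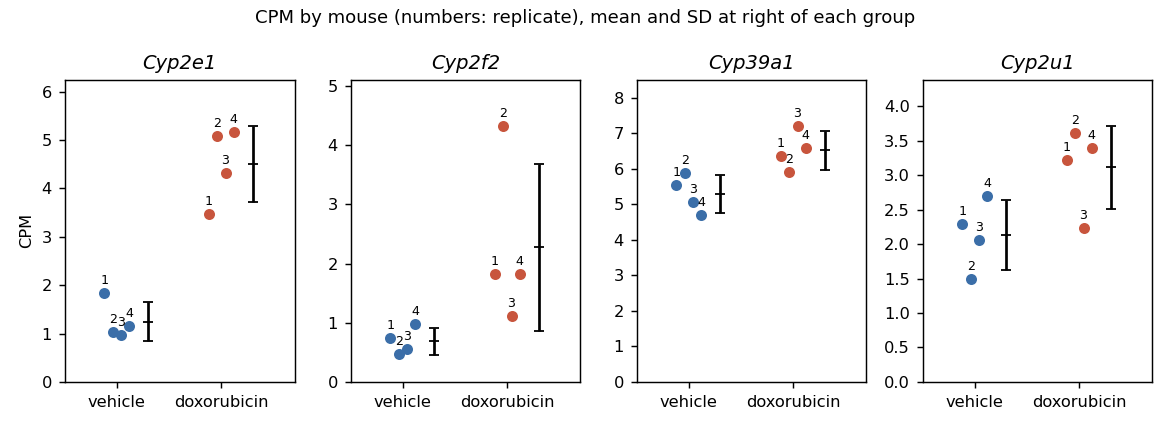
CPM of Cyp2e1, Cyp2f2, Cyp39a1 and Cyp2u1 in each mouse, with the replicate number beside each point and the mean and SD of the 4 mice at the right of each group; each panel has its own axis from 0. Cyp2e1, Cyp2f2 and Cyp39a1 do not overlap between groups, whereas doxorubicin mouse 3 of Cyp2u1 lies within the vehicle range.

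Cyp1b1 (ENSMUSG00000024087.4, chr17:79701537-79715061, minus strand) oxidises oestrogens and polycyclic hydrocarbons and is induced by the aryl hydrocarbon receptor. It was at 90.4, 99.4, 115 (114.8) and 72.8 CPM in vehicle mice and 82.1, 105 (104.7), 61.1 and 72.3 CPM in doxorubicin mice. The groups overlapped over most of their range. Its means were 94.3 ± 17.6 and 80.1 ± 18.6 CPM (SD, n = 4 each), and the log2 fold change of -0.24 ± 0.19 had an interval of -0.65 to 0.18, and without DoxoR 2 it was -0.42. Cyp1a1, the classical target of the same receptor, was near the floor in every mouse, with 1, 4, 3 and 4 counts in vehicle mice and 2, 6, 2 and 3 in doxorubicin mice, and Cyp1a2 had none. Cyp2d22, of a drug-oxidising subfamily, averaged 4.96 ± 0.913 CPM in vehicle and 5.29 ± 0.629 CPM in treated mice (SD, n = 4 each), with a log2 fold change of 0.09. Cyp2b10, a target of the constitutive androstane receptor in liver, averaged 0.699 ± 0.312 CPM without and 0.566 ± 0.292 CPM with the drug (SD, n = 4 each), and 8.70% of its 50-base stretches were shared with other genes such as Cyp2b13 and Cyp2b19.

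Enzymes that act on fatty acids and eicosanoids were the broadest group in bone, with 12 of 27 expressed. Of these 12, 9 had log2 fold changes above 0 and 3 below, beside 57.2% of all genes above 0. Of the 12, 1, Cyp2u1, had an unadjusted p under 0.05 in edgeR's test, beside 5.36% of all genes. Cyp4f18 (chr8:71988482-72009626, minus strand), which inactivates leukotriene B4 in neutrophils and other myeloid cells, was at 25.4, 24.5, 25.5 and 25.7 CPM in vehicle mice and 23.5, 26.7, 29.8 and 25.4 CPM in doxorubicin mice. Of the 25 expressed genes it varied least among vehicle mice, and its log2 fold change was 0.06 ± 0.10 (95% interval -0.17 to 0.29). Zfp961 on the opposite strand overlapped 9.76% of its exon length. Neutrophil markers were abundant in these bones, and the part of such cells in the level of Cyp4f18 was not tested. Cyp4v3 (chr8:45304944-45333216, minus strand), the mouse counterpart of a fatty acid hydroxylase tied to a human corneal and retinal dystrophy, was at 16.9, 16.5, 24.2 and 16.9 CPM in vehicle mice and 17.3, 20 (19.98), 19.4 and 19.1 CPM in doxorubicin mice. The highest value was in vehicle mouse 3, and the log2 fold change was 0.02 ± 0.14.

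Cyp2u1 (ENSMUSG00000027983.13, chr3:131288441-131303227, minus strand) hydroxylates long-chain fatty acids near their end. Its levels were 2.29, 1.49, 2.06 and 2.70 CPM in vehicle mice and 3.22, 3.60, 2.24 and 3.39 CPM in doxorubicin mice. Doxorubicin mouse 3 lay inside the vehicle range and the other doxorubicin mice above it. The log2 fold change was 0.54 ± 0.23 (95% interval 0.03 to 1.04), with an adjusted p of 0.856 by edgeR. An opposite-strand gene, 4930534D22Rik, overlapped 10.5% of its exon length. Cyp4b1, a hydroxylase of fatty acids and of protoxins in lung, was at 8.43, 6.95, 12.4 and 11.9 CPM in vehicle mice and 5.61, 10.8, 3.79 and 6.04 CPM in doxorubicin mice. Doxorubicin mice 1, 3 and 4 were below every vehicle mouse and mouse 2 was among them, with a log2 fold change of -0.60 ± 0.31 (95% interval -1.29 to 0.10), or -0.99 without DoxoR 2.

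Members of the Cyp4f cluster on chromosome 17, between positions 32452723 and 32947402, lie side by side, and no difference between them was tested. Their log2 fold changes were 1.08 ± 0.63 for Cyp4f39, which acts on the very long fatty acids of skin lipids, -0.17 ± 0.17 for Cyp4f17, 0.12 ± 0.15 for Cyp4f16 and 0.21 ± 0.12 for Cyp4f13. The value of Cyp4f39 was 0.44 without DoxoR 4, which had 2.91 CPM against 0.571 to 1.48 CPM in the other doxorubicin mice. Of the 50-base stretches of Cyp4f16, 17.4% recurred in its neighbours, so reads could be split between them. The epoxygenases of arachidonic acid Cyp2j6 and Cyp2j9 had log2 fold changes of 0.27 ± 0.16 and 0.18 ± 0.21. Cyp4x1 averaged 1.50 ± 0.390 CPM without and 0.957 ± 0.383 CPM with the drug (SD, n = 4 each), for a log2 fold change of -0.65 ± 0.32, and 10.7% of its exon length overlapped an antisense gene. Cyp2s1, which is found mainly outside the liver, was at 0.0933 to 1.08 CPM in vehicle mice and 0.739 to 1.09 CPM in doxorubicin mice.

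All 4 P450 genes of vitamin D metabolism had counts, and none of the 2 tested had a p under 0.05. Cyp2r1, the main liver enzyme of the initial activating step, was at 0.899, 1.17, 1.47 and 1.22 CPM in vehicle mice and 1.09, 1.17, 0.988 and 0.868 CPM in doxorubicin mice, a log2 fold change of -0.21 ± 0.22. Cyp27a1 (chr1:74713574-74737892, plus strand), a mitochondrial sterol hydroxylase of bile acid synthesis that can also activate vitamin D, was at 22.1, 19.6, 15.1 and 19.7 CPM and at 19.1, 14.7, 14.4 and 22.3 CPM. Its groups overlapped throughout, with a log2 fold change of -0.12 ± 0.17 (95% interval -0.51 to 0.27).

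Cyp27b1, which makes calcitriol, was below the filter with 6, 9, 7 and 7 counts in vehicle mice and 19, 10, 2 and 3 counts in doxorubicin mice, the highest in DoxoR 1. Cyp24a1, which breaks calcitriol down and is a classical target of its receptor, had 6 counts in all, in 4 of the 8 libraries. Their receptor Vdr was well expressed in both groups, with means of 64.6 ± 18.1 and 64.7 ± 24.6 CPM (SD, n = 4 each; log2 fold change 0.00). Of the 6 other vitamin D genes 4 were tested. Cubn, an uptake receptor for vitamin D carrier protein, had an unadjusted p under 0.05 in the same model, beside 5.36% of all genes. It was at 0.482 ± 0.135 and 0.862 ± 0.0958 CPM (SD, n = 4 each), with an adjusted p of 0.825 by edgeR. Its groups did not overlap, beside 1.64% of all genes in that direction. Its partner Lrp2 averaged 0.0480 CPM, and the log2 fold change of the shared receptor partner Rxra was 0.33.

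Retinoic acid is degraded by 3 P450 enzymes, and Cyp26b1 was the expressed member in bone. It was at 3.56, 1.82, 1.32 and 3.34 CPM in vehicle mice and 4.22, 5.50, 2.21 and 2.87 CPM in doxorubicin mice. The groups overlapped, with a log2 fold change of 0.56 ± 0.37 (95% interval -0.27 to 1.40), or 0.27 without DoxoR 2. Cyp26a1 was at 0.712, 0.327, 0.406 and 0.574 CPM and at 0.348, 0.420, 0.263 and 0.347 CPM, a log2 fold change of -0.54 ± 0.32. Cyp26c1 had 27 counts in all. Of 12 other retinoid genes 10 were tested and none had a p under 0.05, the log2 fold changes being 0.33 for the receptor Rara, 0.19 for Rarg and -0.36 for the carrier Crabp2.

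Of the P450 enzymes that make steroid hormones, Cyp11a1 was expressed and the rest were at or near 0. Cyp11a1 cleaves the cholesterol side chain, and it was at 1.20, 1.31, 1.45 and 1.11 CPM in vehicle mice and 0.870, 1.11, 1.35 and 1.303 CPM in doxorubicin mice. The groups overlapped, with a log2 fold change of -0.13 ± 0.22. Cyp19a1, the aromatase that makes oestrogen, had no count in any of the 8 libraries, and neither did Cyp11b1 and Cyp11b2. Cyp17a1 had 5 counts and Cyp21a1 had 3 over all libraries. Of 6 other steroidogenic genes, Hsd3b1, Hsd3b6 and Hsd17b3 had no count, and neither of the 2 tested, Star (log2 fold change -0.35) and Hsd17b1 (0.65), had a p under 0.05.

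Among the 5 enzymes of bile acid and oxysterol metabolism, Cyp39a1 and Cyp7b1 were expressed, and Cyp7a1, which starts bile acid synthesis in liver, had no count. Cyp39a1 (ENSMUSG00000023963.10, chr17:43667425-43751431, plus strand) hydroxylates oxysterols. Its levels were 5.55, 5.88, 5.05 and 4.69 CPM in vehicle mice and 6.35, 5.92, 7.21 and 6.60 CPM in doxorubicin mice. The groups did not overlap, by a narrow margin between vehicle mouse 2 and doxorubicin mouse 2. Its means were 5.29 ± 0.525 and 6.52 ± 0.541 CPM (SD, n = 4 each), a log2 fold change of 0.30 ± 0.13 (95% interval 0.0030 to 0.60) with an adjusted p of 0.856 by edgeR. Cyp7b1, which also hydroxylates oxysterols, was at 1.16, 0.747, 1.22 and 0.540 CPM and at 0.696, 0.811, 0.626 and 0.781 CPM, a log2 fold change of -0.34 ± 0.30. Cyp46a1, which hydroxylates cholesterol in brain, had a log2 fold change of 0.83 ± 0.42 at 0.303 ± 0.152 and 0.550 (0.5496) ± 0.250 (0.2496) CPM (SD, n = 4 each). Without DoxoR 3, the mouse with the highest level at 0.922 CPM, its log2 fold change was 0.43.

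The 2 expressed genes whose role is not well known were Cyp20a1 and Cyp2ab1. Cyp20a1 (chr1:60343323-60388060, plus strand) was at 15.7, 13.6, 15.3 and 13.4 CPM in vehicle mice and 14.4, 14.6, 14.3 and 11.6 CPM in doxorubicin mice. Doxorubicin mouse 4 was the lowest, and the log2 fold change was -0.08 ± 0.12. Cyp2ab1 averaged 1.80 ± 0.557 CPM without and 1.43 ± 0.330 CPM with the drug (SD, n = 4 each), and its log2 fold change was -0.30 ± 0.27.

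P450 genes named outside the symbol pattern were given alongside. Of these 3, 1 had an unadjusted p under 0.05 in edgeR's test, beside 5.36% of all genes. Tbxas1, thromboxane synthase of platelets and macrophages, was at 54.1, 60.5, 67.3 and 58.4 CPM in vehicle mice and 30.3, 43.7, 43.6 and 47.8 CPM in doxorubicin mice. Every doxorubicin mouse was below every vehicle mouse, beside 1.95% of all genes in that direction. The log2 fold change was -0.54 ± 0.15, with an adjusted p of 0.811 by edgeR. All 10 megakaryocyte markers had log2 fold changes below 0 (median -0.54), while 57.2% of all genes were above 0. These markers summed to 1277 to 2003 CPM in vehicle and 835 (835.4) to 1323 CPM in doxorubicin mice. Of 10 macrophage markers 9 were below 0 as well (median -0.30), summing to 515 to 807 CPM in vehicle and 456 to 631 CPM in doxorubicin mice. Their part in the level of Tbxas1 was not tested. Ptgis, prostacyclin synthase, had a log2 fold change of 0.38 ± 0.26 and Cyp51, of cholesterol synthesis, -0.14 ± 0.18.

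The partners and regulators of P450 enzymes came from lists chosen by function. All 11 electron donors and related proteins found in the table were tested and none had a p under 0.05, with log2 fold changes of 0.01 for the oxidoreductase Por, 0.18 for Cyb5b, 0.19 for Cyb5r1 and -0.27 for Cyb5a. Of 13 xenobiotic and lipid sensing receptors 8 were tested, none with a p under 0.05, and the values were 0.24 for Nr1h2, 0.22 for Rxrb and -0.05 for Ahr. The liver regulators Nr1i2 and Nr1i3 averaged 0.0109 and 0.0361 CPM. None of the 6 aryl hydrocarbon receptor targets other than P450 genes had a p under 0.05, and Nfe2l2, Tiparp and Ugt1a6a had log2 fold changes of -0.22, -0.16 and 0.25. Of 9 epoxide hydrolases and flavin monooxygenases 8 were tested and 2 had an unadjusted p under 0.05 in the same model, beside 5.36% of all genes. Fmo1 averaged 31.2 ± 5.96 CPM without and 41.4 ± 6.93 CPM with the drug (log2 fold change 0.41), and Ephx3 at 0.639 ± 0.148 and 0.334 ± 0.111 CPM (log2 fold change -0.89; SD, n = 4 each), both with an adjusted p of 0.856 by edgeR. Ephx2, which hydrolyses the epoxides that P450 enzymes make from arachidonic acid, had a log2 fold change of 0.33.

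Adipocytes are among the cells known to express Cyp2e1, and the adipocyte markers were therefore read in the same mice. Of the 12 tested adipocyte markers 10 had log2 fold changes above 0 (median 0.54), beside 57.2% of all genes. Of the 12, 4 had an unadjusted p under 0.05 in the same model, beside 5.36% of all genes. These were Plin1 (1.60), Cidec (1.27), Pck1 (1.45) and Retn (1.05). None passed adjustment (adjusted p 0.703 to 0.856 by edgeR). Of these 4 only Retn had groups that did not overlap, beside 1.64% of all genes in that direction. More abundant markers were near 0, with Adipoq at -0.02, Fabp4 at 0.07 and Lpl at 0.00 on the same scale. The 13 markers summed to 652 to 701 CPM in vehicle mice and 496 to 906 CPM in doxorubicin mice, and none was at 0 in every mouse. As the mean of log2(CPM + 0.5), they scored 3.25, 2.88, 2.96 and 3.19 in vehicle mice and 3.56, 3.98, 3.10 and 3.51 in doxorubicin mice. DoxoR 2, which had the highest Cyp2f2, also had the highest score, and DoxoR 3 lay within the vehicle range.

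With this score as a covariate in the same model, the log2 fold change was 1.63 ± 0.30 for Cyp2e1 and 0.53 ± 0.29 for Cyp2f2. In the same fit the unadjusted p was under 0.05 for Cyp2e1, Cyp39a1, Cyp4b1 and Cyp26a1, beside 5.21% of all genes. It was no longer so for Cyp2f2 and Cyp2u1. Cyp26a1 had passed the filter mainly through the vehicle group, where it was higher, so its place here carries little. The other values were 0.10 for Cyp2u1, 0.45 for Cyp39a1, -0.33 for Cyp26b1, -1.10 for Cyp26a1 and -1.39 for Cyp4b1. DoxoR 3 had 4.31 CPM of Cyp2e1 at a score of 3.10, whereas vehicle mice 1 and 4, with scores of 3.25 and 3.19, had 1.84 and 1.15 CPM. The score and the groups were linked, so their parts cannot be told apart with 8 mice.

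**Figure D4:**
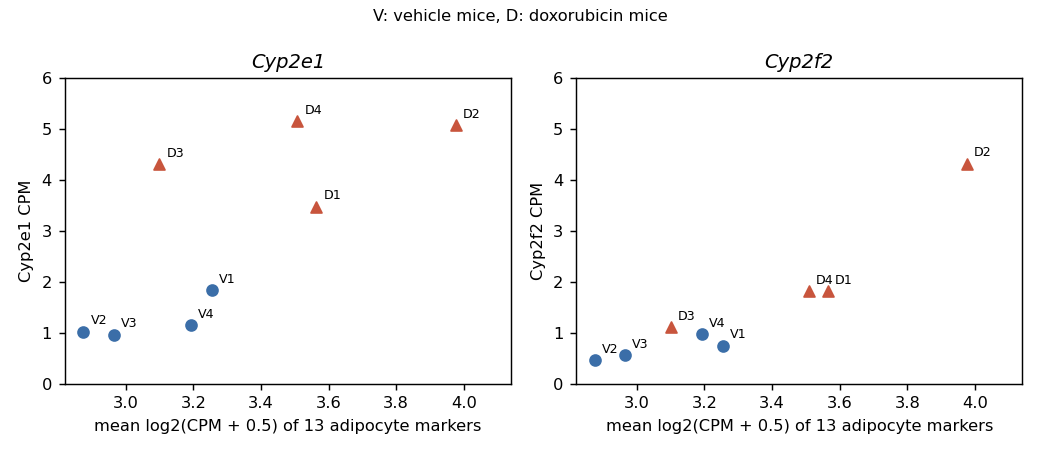
CPM of Cyp2e1 and Cyp2f2 against the mean log2(CPM + 0.5) of 13 adipocyte markers in each mouse (circles: vehicle V1 to V4, triangles: doxorubicin D1 to D4). Cyp2e1 is above 3 CPM in every doxorubicin mouse at scores from 3.10 to 3.98, and Cyp2f2 is highest, at 4.33 CPM, in the mouse with the highest score.

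The other marker lists give the rest of the cell makeup. Median log2 fold changes were 0.36 for skeletal muscle, 0.03 for neutrophils, -0.29 for the erythroid list, 0.01 for B lymphoid cells, 0.09 for endothelium, 0.35 for osteoblasts, 0.15 for osteocytes, 0.41 for osteoclasts, 1.302 for chondrocytes and -0.19 for stromal progenitors. Only 2 of 9 hepatocyte markers passed the filter, Trf and Serpina1a, with a median of 0.72. These medians moved when single mice were left out, in fits added after the data had been seen. Without DoxoR 3 the median was 0.46 for chondrocytes, 0.0141 for the hepatocyte list and -0.67 for the erythroid list. Without CTRL 3 it was 0.0013 for muscle, and without DoxoR 2 it was 0.22 for adipocytes, 0.13 for osteoblasts and -0.13 for osteocytes. Muscle markers summed to 4064 CPM in CTRL 3, against 20480 CPM or more in the other vehicle mice. The part of these cell types in the P450 levels was not tested beyond the covariate fits.

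A group of low members was seen almost only in the library DoxoR 1. Picked after their values were seen, 11 genes had over 50% of their counts there, namely Cyp3a13, Cyp3a11, Cyp4f14, Cyp2d26, Cyp2c65, Cyp3a25, Cyp2b19, Cyp2c66, Cyp2c68, Cyp2j12 and Cyp4f40. Cyp2j12 and Cyp4f40 had 1 count in all, and Cyp2b19, Cyp2c66 and Cyp2c68 had 3 each, so their shares carry little. Single counts fell in other libraries too, as for Cyp2j11 and Cyp8b1 in CTRL 4. By this choice the counts of the 11 genes summed to 129 in DoxoR 1. In the other 7 libraries they summed to 20 together, 0 to 6 in each. DoxoR 1 held 11.9% of all counts, and the same share was not computed over all genes or for other libraries. Cyp3a13 (chr5:137892932-137921619), a CYP3A enzyme of the intestine, had 54 counts there against 0 to 5 elsewhere, and Cyp3a11, a main drug-oxidising enzyme of liver and intestine, had 28 against 0. Cyp4f14 had 17 counts against 0 or 1. None of the 25 expressed genes was among them, and 25 were expressed with or without this library. The expressed gene Cyp2b10, with 16.4% of its counts in DoxoR 1, was at 1.00 CPM there. It was at 0.391 to 0.478 CPM in the other doxorubicin mice and at 1.07 CPM in CTRL 2. Its log2 fold change was -0.32 with all mice and -0.74 without DoxoR 1.

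**Figure D5:**
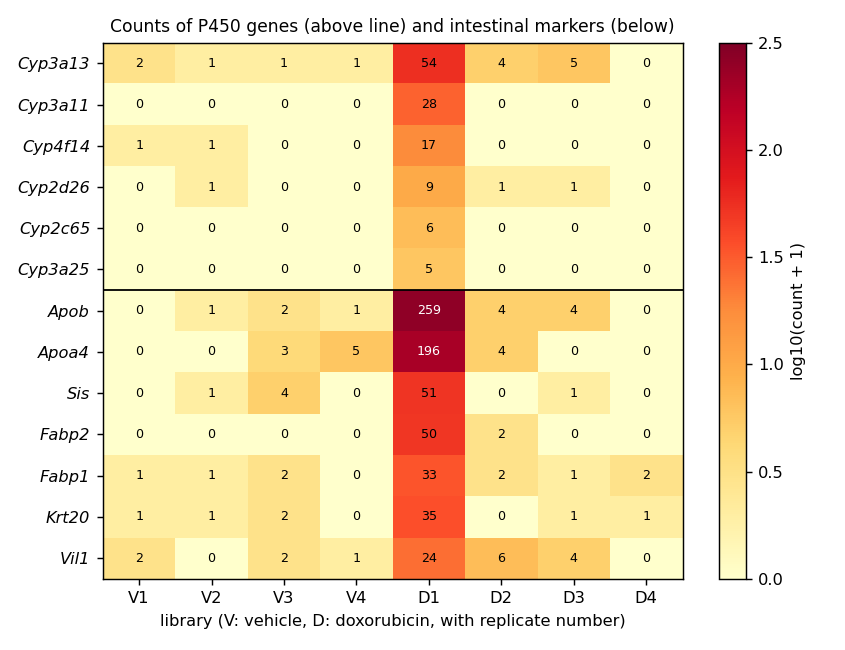
Counts in each library of 6 P450 genes with most of their counts in DoxoR 1 (above the line) and of 7 intestinal markers (below), coloured by log10(count + 1), with V for vehicle and D for doxorubicin. Cyp3a13 and Apob reach 54 and 259 counts in D1 and at most 5 and 4 in any other library.

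The same library carried transcripts of the intestinal lining. Of 16 intestinal epithelium markers, a list chosen after the pattern was seen, 15 were highest in DoxoR 1 and 11 had over 50% of their counts there, led by Apob with 259, Apoa4 with 196, Sis with 51 and Fabp2 with 50 counts. Without Lgals4, which was at 7.84 to 11 (10.96) CPM in every library, the list summed to 31.1 CPM in DoxoR 1 and 0.45 to 1.08 CPM in the others. Cdx2 was at 0 in all. Apoa1, made by liver and intestine, was at 6.57 CPM in DoxoR 1 and at most 0.120 CPM elsewhere, while the 6 hepatocyte markers named above had 9 counts in it, against 2 to 16 in the others. The part of such RNA in these P450 counts was not tested. Without DoxoR 1 the log2 fold changes were 1.95 for Cyp2e1, 1.80 for Cyp2f2, 0.51 for Cyp2u1 and 0.30 for Cyp39a1.

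The remaining untested genes add little. All 29 untested genes with a count had between 1 and 68 counts over the 8 libraries. The 38 genes without a count included Cyp1a2, Cyp2a5, Cyp2c29 and Cyp2d10, which are known from mouse liver, and a count of 0 allows a mean of up to 0.0132 CPM.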

How the data were processed

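The unit of the deposited table was taken to be expected counts per gene. All values were whole numbers, and rounding changed none. Per the submitters' processing notes, the authors used STAR 2.5.3a and RSEM 1.3.0. The same notes name the human build GRCh38, whereas the gene identifiers are those of mouse. Libraries came from a stranded poly-A kit with unique molecular identifiers, 500 ng of RNA and 15 PCR cycles (labels' protocols). The sources used here do not say whether counting used the strand or the identifiers, and PCR copies may remain among the reads.

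Genes were kept by filterByExpr (minimum count 10, minimum total 15), scaled by TMM and tested with edgeR 4.0.16 in R 4.3.3 (robust quasi-likelihood test, two-sided, Benjamini-Hochberg over 17035 genes, threshold 0.05, no block). The SE was derived from the F statistic, and CPM values are scaled by TMM. The common biological coefficient of variation was 0.219. Alternatives were DESeq2 1.42.0 and voom from limma 3.58.1, beside other scalings, filters, covariates and left-out mice. The fits were tested on simulated data. In all 28 pairwise comparisons the libraries differed beyond sampling noise (chi-square from 26.2 to 264 times its degrees of freedom).

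Gene positions, exon lengths, overlaps and shared stretches of 50 bases came from GENCODE M21 (GRCm38), in which 92 of the 94 identifiers matched with their version. Symbols are those of the deposited table. Full values are given for P450 genes with an unadjusted p under 0.05 or separate groups, the 5 highest per kb, and a set chosen by role. Other pathway genes are the up to 3 with the smallest p in a list, with a few regulators and receptors added. The members, roles and lists were chosen with earlier results of these data known.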

Additional observations from a re-analysis of the deposited data

Results flagged for a closer look

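Among 33 P450 genes with a mean of at least 0.1 CPM, each group of 4 mice was searched for a mouse far from the other 3. For normally distributed values chance gives this in about 1 of 20 groups, and low counts do not follow that distribution. Such a mouse was found in 7 of 66 groups, and 4 of the 7 lay in DoxoR 1. In that library Cyp3a13 was at 2.35 CPM (next 0.165), Cyp3a11 at 1.22 (next 0), Cyp4f14 at 0.739 (next 0) and Cyp2b10 at 1 CPM (next 0.478). Cyp3a13, Cyp3a11 and Cyp4f14 reached the limit of 0.1 CPM only through DoxoR 1, so their flags there were largely fixed by that choice. The number of flags is therefore not read against the chance rate. Cyp46a1 was at 0.922 CPM in DoxoR 3 (next 0.451). Cyp4v3 was at 24.2 CPM in CTRL 3 (next 16.9), the vehicle mouse with the lowest muscle markers. Cyp20a1 was at 11.6 CPM in DoxoR 4 (next 14.3).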

How the results depend on the processing

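The number of P450 genes with an adjusted p under 0.05, 0 by edgeR, was 1 (Cyp2e1) without a filter on low counts and 1 with DESeq2, and over all genes it was 1 and 29 in the same settings. In the other settings run, a threshold of 0.1 included, it was 0. The number at an unadjusted p under 0.05, 4, was 2 when scaled by library size alone (4.03% of all genes) and 2 with a muscle covariate (5.66%). It was 4 with the adipocyte covariate (5.21%), with Cyp4b1 and Cyp26a1, both lower, in place of Cyp2f2 and Cyp2u1. Cyp26a1 passed the filter mainly through the vehicle group. When single mice were left out the number was 2 to 5, beside 3.68% to 10.5% of all genes. The 5 came without CTRL 4, where that share was 10.5%. The median log2 fold change over the 27 tested P450 genes, 0.06, was -0.0076 to 0.0818 when mice were left out, the lowest without DoxoR 3. The fit without a filter gave 0.18, but over 56 P450 genes, those with very few counts included, beside 0.0217 over all genes. The number of expressed genes was 25 under each scaling and each left-out mouse, 22 at a limit of 1 CPM and 29 at 0.2 CPM. Of 480 values of single genes, 466 kept their direction and side of the threshold. Signs reversed with the adipocyte covariate for Cyp26b1 (-0.33), Cyp2b10 (0.0833), Cyp11a1 (0.0661) and Cyp2d22 (-0.0292), and with library size only for Cyp4v3 (-0.0321). With mice left out, values ran from -0.044 to 0.14 for Cyp4v3, -0.0275 to 0.0935 for Cyp4f18 and -0.0007 to 0.16 for Cyp2d22. The cause of these shifts was not tested. With the replicate number as a block, 0 genes were called, 4 P450 genes and 1466 of all genes (8.61%) had an unadjusted p under 0.05, the median of the tested P450 genes was 0.0549, and Cyp2e1 was at 1.88. Of the 4 P450 genes, Cyp4f39 took the place of Cyp39a1. Deviations of same-numbered mice correlated by 0.483, -0.377, 0.516 and 0.124, and 5 of 8 libraries correlated best with their own number, a possible hint of pairing. Since the second pair was negative and no label ties the numbers, they were not taken to pair the mice. Mean log2(CPM + 0.5) of the muscle markers was highest of its group in CTRL 1 (10.8) and DoxoR 1 (11.3). It was lowest in CTRL 3 (8.40) and DoxoR 3 (9.96), so pairing and tissue makeup cannot be told apart here. Depth limits what can be said of the 67 untested genes, and 4 mice a group limit the rest.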
